A study of Mus musculus with 25 samples.

Results

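Astrocytes grown with bFGF alone and transduced with Neurog2 together with Hmgb2 were compared with Control astrocytes of the same culture by ATAC-seq, which measures how readily a transposase cuts chromatin at each site. The comparison held 6 of the 25 libraries of the series, 3 with Neurog2+Hmgb2 and 3 with Control. It covered 45657 of the 45672 peaks of the deposited table, namely all peaks except 1 on the mitochondrial chromosome, 1 over the Neurog2 coding sequence and 13 that share the Hmgb2 coding sequence, which the viruses carry as well. The study asked how growth factors limit the conversion of astrocytes to neurons, and whether Hmgb2 helps Neurog2 to open chromatin in the bFGF culture, in which astrocytes convert poorly.

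All cells were wild-type C57BL/6J mouse astrocytes in primary culture, taken from the cerebral cortex of postnatal mice and expanded with 10 ng/ml bFGF. The sources differ on the mice and the tissue: the growth protocol gives P5–P6 and the series design P6–P8, and the labels name grey matter where the study's methods name white matter. The Neurog2+Hmgb2 group received retroviruses that encode Neurog2 and Hmgb2, each with a fluorescent reporter, and the Control group a retrovirus with a fluorescent reporter and no factor. Cells were sorted by fluorescence 48 h after transduction. These retroviruses enter dividing cells and express their insert from a general promoter, so the factors were overexpressed in whichever astrocytes divided. A second culture with both EGF and bFGF, at 10 ng/ml each, gave 3 Neurog2+Hmgb2 and 3 Control libraries that are used below for comparison. The labels do not say whether the libraries of a group came from separate cultures, so the p-values describe only the spread among libraries, which may in part be technical.

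Neurog2 is a proneural transcription factor of the basic helix-loop-helix family. Such factors bind short palindromic sites called E-boxes, of the form CANNTG, and in the embryonic cortex Neurog2 switches on further neurogenic factors such as Neurod4 and Nhlh1. Hmgb2, of the high mobility group family, is a chromatin protein that binds and bends DNA with little regard to its sequence. The study's terms and limits are used, but on other values: it tested peak counts with DESeq2, whereas here the deposited rlog values, in which differences of weak peaks are shrunken, were tested with limma, so that a limit of the same size is stricter for such peaks. A site is called a more accessible site (MAS) when its signal was higher with Neurog2+Hmgb2 by more than 1 on the log2 scale at an adjusted p under 0.05, and a less accessible site (LAS) when it was lower by more than 1 at the same threshold. Sites carry the name of the protein-coding gene whose transcription start site (TSS) is nearest, whether or not they regulate it. Accessibility is given as the deposited regularized log (rlog) value, on the log2 scale.

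The DNA of the strongest MASs is shown first, because the E-boxes in it recur below. These are the central 200 bases of 7 peaks, read from the plus strand of GRCm38, the assembly also called mm10. Capitals mark the E-box CAGATG, which reads CATCTG where it lies on the other strand, and the palindromic E-box CAGCTG.
Grm7 (chr6:111866272-111866471): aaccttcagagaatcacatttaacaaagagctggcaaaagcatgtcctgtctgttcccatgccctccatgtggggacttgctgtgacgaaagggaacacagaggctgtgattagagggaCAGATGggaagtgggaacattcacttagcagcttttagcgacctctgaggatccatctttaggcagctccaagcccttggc
Gm8797 (chr3:5754906-5755105): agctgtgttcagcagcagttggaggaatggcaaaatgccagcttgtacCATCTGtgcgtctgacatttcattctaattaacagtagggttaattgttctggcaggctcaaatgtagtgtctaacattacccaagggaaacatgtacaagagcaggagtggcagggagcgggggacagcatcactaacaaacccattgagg
Crisp4 (chr1:18168411-18168610): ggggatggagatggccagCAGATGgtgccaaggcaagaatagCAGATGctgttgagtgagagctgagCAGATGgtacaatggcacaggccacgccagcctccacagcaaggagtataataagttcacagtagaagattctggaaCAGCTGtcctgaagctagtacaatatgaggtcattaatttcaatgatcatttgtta
Bckdhb (chr9:84548223-84548422): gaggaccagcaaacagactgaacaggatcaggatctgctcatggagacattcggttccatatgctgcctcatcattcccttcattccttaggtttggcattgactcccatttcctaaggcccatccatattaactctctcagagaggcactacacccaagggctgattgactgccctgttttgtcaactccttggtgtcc
Celf2 (chr2:8498668-8498867): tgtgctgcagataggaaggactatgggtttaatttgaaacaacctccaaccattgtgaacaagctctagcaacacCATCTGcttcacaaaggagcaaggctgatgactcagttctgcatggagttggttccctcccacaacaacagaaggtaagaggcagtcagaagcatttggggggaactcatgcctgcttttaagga
Dusp10 (chr1:183794065-183794264): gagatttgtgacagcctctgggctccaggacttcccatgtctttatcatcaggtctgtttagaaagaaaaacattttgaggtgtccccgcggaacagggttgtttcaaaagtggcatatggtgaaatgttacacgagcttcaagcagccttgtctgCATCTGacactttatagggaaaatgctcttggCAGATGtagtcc
Ckmt2 (chr13:91875649-91875848): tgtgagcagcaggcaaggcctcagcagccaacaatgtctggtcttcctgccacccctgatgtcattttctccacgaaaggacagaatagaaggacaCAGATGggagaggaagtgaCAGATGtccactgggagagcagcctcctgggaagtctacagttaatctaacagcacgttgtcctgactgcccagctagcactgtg
An eighth sequence comes from the site 20.3 kb from the TSS of Neurod4 and was chosen after its values were seen. Its capitals mark the same motifs.
Neurod4 (chr10:130259605-130259804): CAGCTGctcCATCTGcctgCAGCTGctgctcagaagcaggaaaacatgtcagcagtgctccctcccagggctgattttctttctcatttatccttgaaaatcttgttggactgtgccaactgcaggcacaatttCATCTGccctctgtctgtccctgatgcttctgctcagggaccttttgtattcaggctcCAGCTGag
The Crisp4 window held 3 copies of CAGATG and 1 of CAGCTG, and the Neurod4 window 2 of CAGATG and 3 of CAGCTG. The other Neurod4 MAS, 16.6 kb from the TSS and with the larger difference, held 0 of either motif in its central 200 bases. In 300 bases it held 1 of CAGATG. The Bckdhb window held neither motif in 200 bases, and 2 of CAGCTG in 300 bases.

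Signal over the viral inserts matched the labels. The peak over the Neurog2 coding exon had 14.99, 14.68 and 11.79 in the Neurog2+Hmgb2 libraries, against 7.87, 6.76 and 7.03 in the Control libraries. The mean over the 13 peaks with Hmgb2 coding sequence was 7.65, 7.25 and 5.98 in the Neurog2+Hmgb2 libraries, against 4.58, 4.55 and 4.54 in Control. Neurog2+Hmgb2 replicate 3 was the lowest of its group for both inserts. None of these peaks enters the results below. Of 12 astrocyte markers 10 had a promoter peak. Sox9 was at a mean of 7.01 with Neurog2+Hmgb2 and 6.88 in Control, and Slc1a3 at 5.24 and 5.20. The means over the list were 5.87 to 6.04 in Neurog2+Hmgb2 libraries and 5.94 to 6.02 in Control libraries. The Control median of the list lay at percentile 35.6 of promoters. Of the markers of other cells, 2 of 8 for microglia and 2 of 7 for endothelial cells had a promoter peak, with means over the list of 4.2 to 4.51 and 4.09 to 4.30 in Neurog2+Hmgb2 libraries, against 4.13 to 4.19 and 4.15 to 4.42 in Control. Neuronal markers were as high as those of astrocytes, with 5 of 9 promoters measured and Control means of 5.96 to 6.23. For the oligodendrocyte lineage 7 of 8 were measured, at 4.89 to 5.14 in Control. For pluripotent cells 1 of 6 was measured, at 7.39 to 7.84. Promoter signal of these lists thus does not identify the cell type. None of the promoters of the 7 marker lists passed the test in either direction.

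Many more sites gained than lost accessibility with Neurog2+Hmgb2. Of all peaks, 188 were MASs (0.412%) and 15 were LASs (0.0329%) by limma with Benjamini-Hochberg adjustment. Without a limit on the size of the difference, 1176 peaks were higher (2.58%) and 212 were lower (0.464%). The MASs had a median difference of 1.11 and reached at most 1.61, whereas the median over all peaks was -0.00399. In all 188 MASs every Neurog2+Hmgb2 library lay above every Control library, which follows largely from their choice on these 6 libraries and is no further support; 9.92% of all peaks were separated in that direction. In bulk samples a site that opened in more cells and a site that opened further in each cell cannot be told apart. The number of MASs rested in part on Neurog2+Hmgb2 replicate 1, without which it was 309, and 86 of the 188 stayed MASs whichever of the 6 libraries was left out. By the adjusted p alone, with no limit on the difference, 164 kept their call in all 6 fits.

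**Figure D1:**
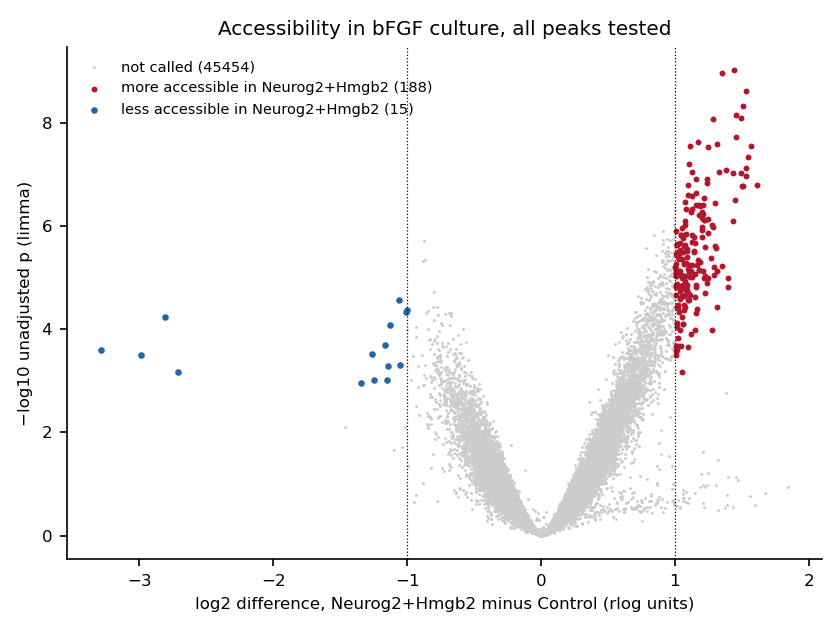
Each point is 1 of the 45657 peaks, with the log2 difference of Neurog2+Hmgb2 minus Control in bFGF culture on the x axis and −log10 of the unadjusted limma p on the y axis; dotted lines mark a difference of 1 either way. The 188 red MASs lie between 1.00 and 1.61, the 15 blue LASs reach -3.29, and the 38 grey peaks right of 1 were not called, with a median SE of 0.80 against 0.20 for MASs.

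Sites lay close to the limit of 1 on both sides. Just inside it lay sites near Ankrd7, Dner and Tff3, at 1.00, 1.00 and 1.01, and just outside it sites near R3hcc1, Ttc7b and Agbl1, each at 1.00 after rounding. Dner encodes a Notch-like transmembrane protein of neurons.

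Among the MASs the largest rise was found near Grm7, a metabotropic glutamate receptor gene, in intergenic DNA 370.0 kb away (chr6:111865922-111866821). It had 5.91, 6.20 and 6.41 in the Neurog2+Hmgb2 libraries, against 4.45, 4.47 and 4.75 in Control, a log2 difference of 1.61 ± 0.24 (SE, n = 3 per group, limma adjusted p = 0.000269). The groups were more than 1 log2 unit apart even at their closest libraries. Grm7 was also the nearest gene of 2 further MASs, 439.0 and 238.0 kb from its TSS, with differences of 1.22 ± 0.23 and 1.11 ± 0.15.

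Most of the other strong MASs were intergenic as well. The site 22.4 kb from Crisp4, a secreted protein of the epididymis (chr1:18168339-18168682), had 5.02, 5.44 and 5.01 with Neurog2+Hmgb2, against 3.62, 3.60 and 3.62 in Control. Its Control libraries were nearly identical, and the difference was 1.55 ± 0.21 (adjusted p = 0.000152). The site near Celf2, an RNA-binding protein that regulates splicing in neurons, lay 1100.0 kb from the TSS (chr2:8498475-8499059) and had 5.32, 5.32 and 5.04 with Neurog2+Hmgb2, against 3.78, 3.56 and 3.74 in Control (1.53 ± 0.18, adjusted p = 3.74e-05). Near Bckdhb, an enzyme subunit of branched-chain amino acid breakdown, the values were 5.40, 5.33 and 5.11 with Neurog2+Hmgb2, against 3.70, 3.55 and 3.99 in Control (chr9:84548049-84548596). The naming rule asked for groups apart, so no library could cross over at these sites. Inside Dlgap1, which encodes a scaffold of the postsynaptic density, an intronic site 26.7 kb from the TSS (chr17:70488714-70489286) had 5.52, 6.06 and 5.82 with Neurog2+Hmgb2, against 4.25, 4.17 and 4.48 in Control, a difference of 1.5 ± 0.21. The remaining sites of the 10 largest lay near Gm8797 (1.57 ± 0.21), Dusp10, a phosphatase of MAP kinases (1.53 ± 0.22), Ckmt2, a mitochondrial creatine kinase (1.51 ± 0.22), Ppp1r3a, a glycogen-targeting subunit of a phosphatase (1.51 ± 0.18), and Arl6ip6 (1.5 ± 0.22).

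**Figure D2:**
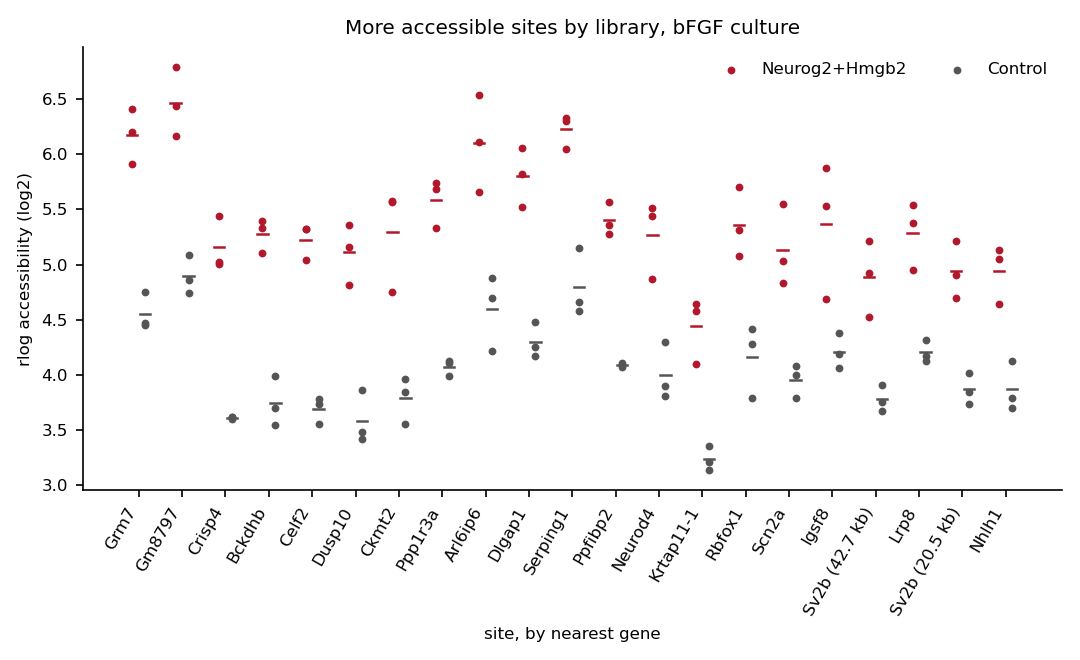
Accessibility (rlog, log2 scale) of 21 MASs, ordered by the size of the difference from left to right; for each site the 3 Neurog2+Hmgb2 libraries (red) stand left of the 3 Control libraries (grey), and bars mark group means. Neurog2+Hmgb2 libraries lie between 4.10 and 6.79 and Control libraries between 3.14 and 5.15. Only sites with groups apart were plotted, so the lack of overlap within a site follows from their choice.

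Several genes had more than 1 MAS nearby. Gse1 had 3 like Grm7, and Cdh4, Neurod4, Sv2b and Trhde had 2 each. The 188 MASs had 180 different nearest genes. At Gse1 the 3 sites were not alike: Neurog2+Hmgb2 had 6.11, 6.25 and 6.11 at the site 60.9 kb from the TSS, against 4.87, 4.55 and 4.68 in Control, whereas at the site 80.0 kb away the values were 5.71, 4.54 and 4.62 with Neurog2+Hmgb2, against 3.74, 4.00 and 3.96 in Control. At the second of these a single Neurog2+Hmgb2 library stood above its group.

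The MASs lay away from promoters. Only 9 of 188 (4.79%) were within 3 kb of a TSS of a protein-coding gene, against 34.0% of all peaks, while 45.7% lay in gene bodies (35.8% of all peaks) and 49.5% between genes (30.2%). Read the other way, 0.058% of promoter peaks became MASs, 0.526% of gene-body peaks and 0.674% of intergenic peaks. With a promoter window of 1 kb, 5 MASs remained at promoters (2.66%, against 29.5% of all peaks). The median distance from a MAS to the nearest TSS was 64900 bp, against 15400 bp for all peaks, and 79 MASs (42.0%) were more than 100 kb from any, against 18.4% of all peaks. They were of ordinary width, with a median of 541 bp against 512 bp, but low in Control, where their median signal of 3.91 exceeded that of 27.7% of peaks. With Neurog2+Hmgb2 their median signal was 5.11.

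The signal of promoters as a class was compared next. The mean promoter signal minus the mean distal signal was 1.27, 1.39 and 1.43 in the Neurog2+Hmgb2 libraries, against 1.51, 1.25 and 1.44 in Control. The groups overlapped, with means of 1.36 ± 0.0841 for Neurog2+Hmgb2 and 1.40 ± 0.135 for Control (SD, n = 3 each) and a difference of -0.0381 (exact two-sided permutation p = 0.70, where 3 libraries against 3 cannot go below 0.10). The sign of this small difference turned with quantile normalization (0.00203) and without Neurog2+Hmgb2 replicate 1 (0.00911) or Control replicate 1 (0.0176).

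The 9 promoter MASs included a neuronal factor. Nhlh1, a helix-loop-helix factor of newborn neurons that acts downstream of proneural factors, rose at its TSS (chr1:172057389-172058043). It had 4.64, 5.05 and 5.13 with Neurog2+Hmgb2, against 3.70, 4.13 and 3.79 in Control, a difference of 1.07 ± 0.22 (adjusted p = 0.00483). The largest promoter differences were at Ckmt2 (chr13:91875540-91875957, 0.928 kb from the TSS) at 4.75, 5.58 and 5.57 with Neurog2+Hmgb2, against 3.56, 3.96 and 3.85 in Control, and at the TSS of Serping1, the inhibitor of complement C1 (chr2:84774641-84775482), at 6.30, 6.33 and 6.05 with Neurog2+Hmgb2, against 5.15, 4.66 and 4.58 in Control (1.43 ± 0.20, adjusted p = 0.000211). Ppfibp2, a liprin (1.31 ± 0.27), Krtap11-1, a hair keratin-associated protein (1.2 ± 0.19), Tspan5, a tetraspanin (1.12 ± 0.21), Rad54l2, a helicase (1.07 ± 0.21), and Igsf8, an immunoglobulin superfamily protein (1.16 ± 0.24), were further promoter MASs. Leaving out 1 library at a time cost Igsf8 its adjusted p in 1 of 6 fits, and brought Nhlh1 in 2 and Rad54l2 in 3 of 6 fits to a difference of 1 or less at an adjusted p still under 0.05.

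The E-box CAGATG marked the MASs. In the central 300 bases, searched on both strands, 161 of 188 MASs (85.6%) held it, against 25.5% of all peaks and 32.0% of peaks outside promoters. At least 2 copies were found in 46.8% of MASs and in 4.77% of all peaks. CAGCTG was also more frequent, in 44.1% of MASs and 24.4% of all peaks, whereas CAGGTG (14.4% against 13.3%) and CACGTG (6.38% against 5.28%) were close to the level of all peaks. These 4 are all forms of CANNTG, which 99.5% of MASs and 75.9% of all peaks held. Neither CAGATG nor CAGCTG was found in 8 of the 188 MASs, against 56.9% of all peaks. The highest number of CAGATG copies was 11, at a site 95.4 kb from Fscb (chr12:64570139-64570600), where Neurog2+Hmgb2 had 5.43, 5.73 and 5.19, against 4.12, 3.96 and 3.98 in Control. The POU-type octamer ATGCAAAT was in 1.60% of MASs and 1.91% of all peaks, and the Sox-type word ACAATG in 20.7% of MASs and 12.8% of all peaks, with ACAAAG at 26.6% and 21.7%. Outside promoters the Sox-type words were closer to the background, ACAATG at 19.6% of MASs against 16.1% of peaks and ACAAAG at 27.9% against 26.4%. TGACTCA, the AP-1 site, was in 16.2% of MASs outside promoters, against 28.8% of all peaks there, and GGAATG, the TEAD site, in 16.2% against 25.2%. These matches describe letters and do not show binding.

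The share of MASs climbed with each added copy of CAGATG. It was 0.0796% of 33916 peaks without a copy, 0.771% of 9464 peaks with 1, 3.30% of 1849 with 2, 6.62% of 272 with 3 and 18% of 50 with 4 or more. The median difference over the same peaks, called or not, was -0.03, 0.07, 0.25, 0.45 and 0.61. Outside promoters the medians were -0.044, 0.094, 0.27, 0.45 and 0.65, so the same order held there. The last group held 50 peaks and 9 MASs. Peaks in 1 cell type share libraries, and these values are a description without a test.

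**Figure D3:**
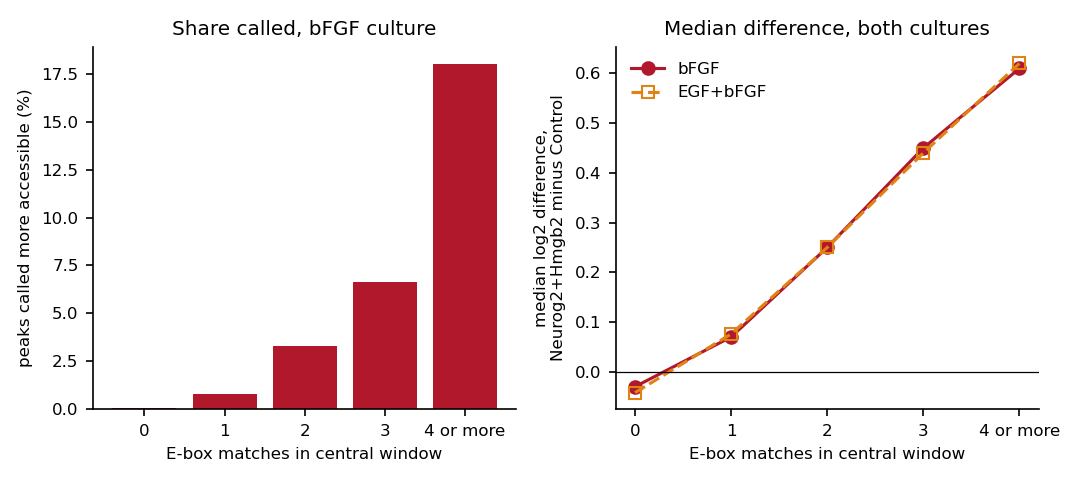
Peaks are grouped by the number of CAGATG matches in their central 300 bases (x axis). Left, percent of each group called a MAS in bFGF culture, from 0.0796% without a match to 18% with 4 or more; right, the median log2 difference of Neurog2+Hmgb2 minus Control in bFGF culture (circles) and in EGF+bFGF culture (squares), which are at 0.61 and 0.62 with 4 or more matches.

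Genes of the proneural cascade gained accessibility mainly at distant sites. Neurod4, a helix-loop-helix factor that Neurog2 activates, had 2 MASs beyond its 3′ end. At 16.6 kb from its TSS (chr10:130263208-130263682) the values were 4.87, 5.51 and 5.44 with Neurog2+Hmgb2, against 3.90, 4.30 and 3.81 in Control (1.27 ± 0.23, adjusted p = 0.00163). This site held 1 copy of CAGATG and 0 of CAGCTG in its central 300 bases. At 20.3 kb (chr10:130259484-130259925), the site whose 5 matches to CAGATG and CAGCTG are shown above, they were 4.6, 5.06 and 4.94 with Neurog2+Hmgb2, against 3.87, 3.64 and 4.06 in Control (1.01 ± 0.20, adjusted p = 0.00377). The promoter of Neurod4 itself was at -0.22 ± 0.19 and did not pass the test. A site 76.5 kb from Ebf2, a factor of neuronal differentiation, had 4.96, 5.00 and 5.18 with Neurog2+Hmgb2, against 3.93, 4.14 and 4.28 in Control (0.93 ± 0.16, adjusted p = 0.00151). At Cbfa2t3, a corepressor, a site 16.5 kb from the TSS rose by 0.84 and a promoter peak 0.328 kb from it by 0.68. The Neurod1 promoter had 4.43, 5.15 and 5.33 with Neurog2+Hmgb2, against 4.6, 4.09 and 4.28 in Control, and its difference of 0.65 ± 0.21 did not pass (adjusted p = 0.105).

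Counted over the whole list of 30 proneural genes, 7 of 107 peaks within 100 kb (6.54%) were higher and 0 were lower at an adjusted p under 0.05, with 3 MASs. Among all peaks within 100 kb of a TSS, 1.98% were higher, 0.452% lower, 0.293% MASs and 0.0377% LASs. At the most accessible promoter peak of each gene, 1 of 24 list members rose (Nhlh1) and 0 fell, where all genes with a promoter peak gave 0.185% higher and 0.193% lower. The Cbfa2t3 promoter peak that rose was not the most accessible of its gene and does not enter this count. The median promoter difference was 0.097, against -0.011 over all genes. The Notch pathway, which holds neighbouring cells undifferentiated, showed 1 of 86 nearby peaks higher, at Jag1 (0.69 ± 0.18), and 0 of 20 promoters past the test. Its effectors Hes1 (-0.11 ± 0.16) and Hes5 (0.06 ± 0.19) were smaller than their SE.

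Among the lists, the core neurogenic genes named by the study had the largest share of rising sites. The study reported Lrp8, Prox1 and Shf as induced in RNA by Neurog2+Hmgb2 in bFGF culture, in cells of the same sorts. The list is therefore in part not independent of these samples, and its share is no separate support. Of 49 peaks within 100 kb of the 10 genes, 8 (16.3%) were higher and 0 lower, and their median difference was 0.20 against -0.0098 for all peaks near a TSS. They were at 4 genes. Lrp8, a receptor of reelin, had 3, the largest 13.0 kb from a TSS (chr4:107817209-107817962) at 4.95, 5.38 and 5.54 with Neurog2+Hmgb2, against 4.13, 4.32 and 4.17 in Control (1.08 ± 0.20, adjusted p = 0.00177). Slit1, a guidance cue, had 2 sites within the gene at 0.91 ± 0.19 and 0.69 ± 0.19, Neurod4 the 2 described above, and Gadd45g, a growth arrest gene, 1 at 0.60 ± 0.17. The Neurod4 and Gadd45g sites were also counted with the proneural genes, and the Lrp8 and Slit1 sites count again for axon guidance below. None of the 9 measured promoters of the list passed: Hes6 was at 0.43 ± 0.19, Lrp8 at 0.26 ± 0.14, Slit1 at 0.20 ± 0.17, Insm1 at 0.20 ± 0.20, Sox11 at 0.02 ± 0.18, Shf at 0.00 ± 0.15, Gadd45g at -0.12 ± 0.19, Neurod4 at -0.22 ± 0.19 and Prox1 at -0.39 ± 0.17.

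Sites at synaptic adhesion and axon guidance genes rose as well. For synaptic adhesion and assembly, 11 of 168 nearby peaks (6.55%) were higher and 1 was lower. All peaks within 100 kb of a TSS gave 1.98% higher and 0.452% lower. That background was not matched to any list by location. It includes promoter peaks, of which 0.058% became MASs, against 0.526% of gene-body peaks, so part of an excess may reflect where the peaks of a list lie. Nrxn3, which encodes neurexin 3, held a MAS in an intron (chr12:89239849-89240285) at 4.6, 4.78 and 4.78 with Neurog2+Hmgb2, against 3.70, 3.64 and 3.66 in Control (1.06 ± 0.18, adjusted p = 0.00139). Teneurin genes Tenm2 and Tenm4 and cadherin genes Cdh10, Cdh11, Cdh12 and Cdh20 had sites that rose by 0.72 to 0.89, while a site in Pcdh10 fell by 0.71. For axon guidance and migration, 11 of 170 (6.47%) were higher and 2 lower. The 11 include the Lrp8 and Slit1 sites already counted for the core neurogenic genes, so the 2 lists are not separate results. Others were sites of the semaphorins Sema6a and Sema6d and of the Eph receptors Epha3 and Epha5, at 0.72 to 0.79. The promoter of Plxnb1, a semaphorin receptor, fell, at 6.26, 6.65 and 6.07 with Neurog2+Hmgb2, against 7.23, 7.28 and 6.76 in Control (-0.76 ± 0.20, adjusted p = 0.032), a call that was lost in 4 of 6 fits without 1 library.

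Other neuronal lists had smaller shares, nearer to the 1.98% higher and 0.452% lower of all peaks within 100 kb of a TSS. Vesicle release and transmission genes had 4 of 99 peaks higher (4.04%) and 0 lower, including 2 MASs at Sv2b, a synaptic vesicle protein: 42.7 kb from the TSS Neurog2+Hmgb2 had 4.92, 4.53 and 5.21, against 3.91, 3.67 and 3.76 in Control. Ion channel genes had 5 of 143 higher (3.5%) and 1 lower, with a MAS in Scn2a, a neuronal sodium channel (4.83, 5.55 and 5.03 with Neurog2+Hmgb2, against 3.79, 4.00 and 4.08 in Control), and a rise in the potassium channel gene Kcnj3 (0.94 ± 0.17). A peak 1.31 kb from the TSS of Kcnj10, the potassium channel of astrocytes, fell by 0.71 (adjusted p = 0.0372). Neuronal cytoskeleton and early neuronal genes had 5 of 188 higher (2.66%) and 1 lower, so the share higher was near the background. Of the 5, 3 were in Rbfox1, a neuronal splicing factor, whose MAS had 5.08, 5.31 and 5.70 with Neurog2+Hmgb2, against 4.28, 3.79 and 4.42 in Control. The promoter of Tubb3, the neuronal tubulin, was at 0.35 ± 0.16 (adjusted p = 0.317).

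**Figure D4:**
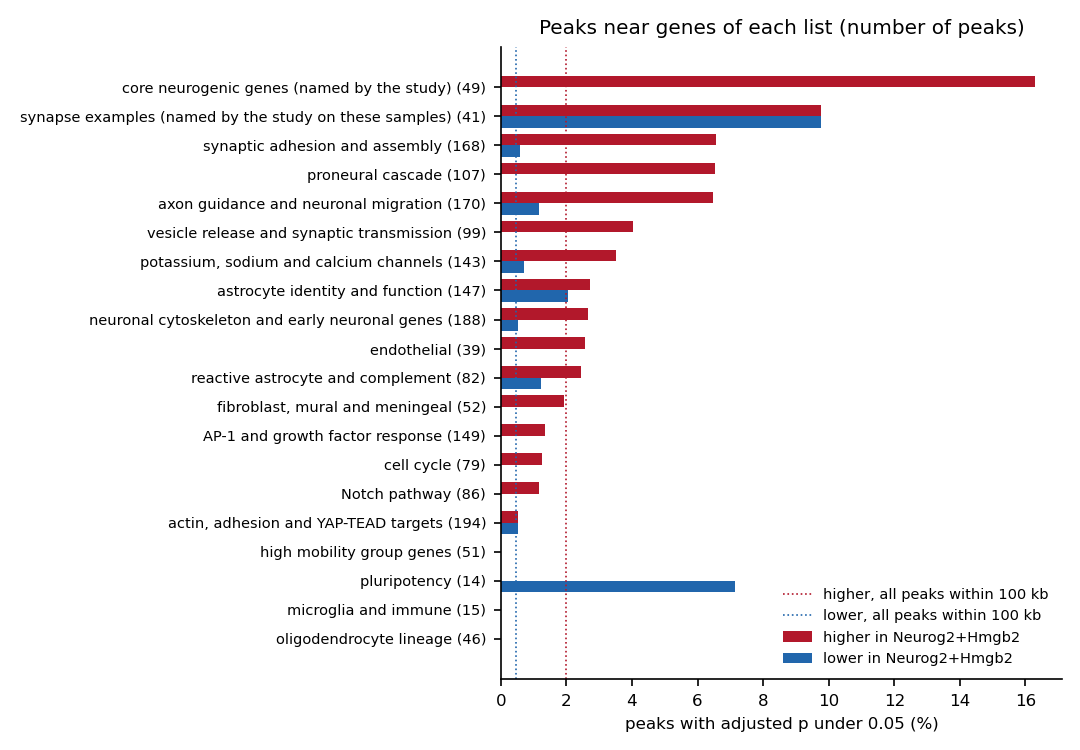
For each gene list, the percent of peaks within 100 kb of its genes with an adjusted p under 0.05 (x axis), higher (red) and lower (blue) with Neurog2+Hmgb2 than in Control; numbers in parentheses are peaks, and dotted lines give 1.98% higher and 0.452% lower for all peaks within 100 kb of a TSS. The core neurogenic genes, some of them named on RNA of the same sorts, lead with 8 of 49 peaks higher. Some sites count in more than 1 list. The lower bar of the synapse examples is 4 Calb1 exon peaks, and that of pluripotency is 1 of 14 peaks.

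Sites near astrocyte genes passed the test in both directions. Of 147 peaks near astrocyte identity genes, 4 were higher (2.72%) and 3 lower, where all peaks within 100 kb of a TSS gave 1.98% higher and 0.452% lower. The share higher was near that background, and the share lower was above it but rested on 3 peaks. The promoter of Fabp7, a fatty acid-binding protein of radial glia and young astrocytes, fell, at 5.98, 5.87 and 6.05 with Neurog2+Hmgb2, against 6.53, 6.46 and 6.52 in Control (-0.54 ± 0.14, adjusted p = 0.0332), and lost the call in each of the 6 fits without 1 library. A site 7.27 kb from Hepacam, a glial adhesion protein, fell by 0.75, whereas a site 35.7 kb from Sox9, a glial transcription factor, had 5.81, 5.79 and 5.39 with Neurog2+Hmgb2, against 4.57, 4.57 and 4.92 in Control (0.98 ± 0.19, adjusted p = 0.00379). Nfib, a factor of gliogenesis, had a site that rose (0.88 ± 0.16) and a site that fell (-0.74 ± 0.21). The promoter median of the list was -0.087, against -0.011 over all genes. The groups were apart and lower at 6 of its 30 promoters, against 818 of 13499 over all genes. They were apart and higher at 2, against 543 of 13499. Near reactive astrocyte and complement genes 2 of 82 peaks were higher and 1 lower, a site 7.30 kb from Stat3 (-0.84 ± 0.18).

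Lists for other cells and processes had few rising sites, where all peaks within 100 kb of a TSS gave 1.98% higher and 0.452% lower. For YAP-TEAD and adhesion genes 1 of 194 peaks was higher (0.515%), below that share, and 1 lower. AP-1 and growth factor response genes had 2 of 149 higher (1.34%), with the largest rise near Spry1, an inhibitor of FGF signalling (0.97 ± 0.18). Cell cycle genes had 1 of 79 higher (1.27%). The counts higher were 0 of 46 for the oligodendrocyte lineage, 0 of 15 for microglia, 1 of 39 for endothelial genes, 1 of 52 for fibroblast and mural genes, 0 of 14 for pluripotency genes and 0 of 51 for high mobility group genes. Lists of 14 to 52 peaks are too small to be set against the 1.98% of all peaks.

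The 15 LASs lay mainly in 2 places. Of these, 8 lay in 1 region of chromosome 5 (chr5:14914416-15691317), 4 over coding exons of Calb1, and the other 3 near 1700129C05Rik, Rabggta and Cntnap5c. Without the first 2 places the count is 3. In 12 of the 15 the groups that chose them did not overlap, and 7.62% of all peaks were separated in this direction. In width they ran from 150 to 2640 bp, and CAGATG was in 2 of 15 within 300 bases. Leaving out 1 library gave 3 LASs (without Neurog2+Hmgb2 replicate 3) to 30 (without Control replicate 1), and 1 of the 15 stayed a LAS in each such fit, while 4 kept an adjusted p under 0.05.

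The Calb1 peaks followed exons and single libraries. Calb1 encodes calbindin, a calcium buffer of neurons, and is a synapse example the study chose on these samples. Its 4 LASs were 150 to 181 bp wide and each held 1 entire coding exon (exons 2, 4, 10 and 11 of 11). The peak over exon 2 (chr4:15881911-15882083) had 2.01, 2.49 and 2.39 with Neurog2+Hmgb2, against 2.67, 7.99 and 4.68 in Control (-2.81 ± 0.60, adjusted p = 0.00659). The peak over exon 11 had 1.74, 1.45 and 2.12 with Neurog2+Hmgb2, against 1.84, 8.99 and 4.34 in Control. Control replicate 2, and to a lesser degree replicate 3, carried the difference. Over the 4 peaks the mean was 1.68, 1.85 and 2.05 with Neurog2+Hmgb2, against 1.91, 8.33 and 4.19 in Control, and the other 19 libraries of the series lay between 1.56 and 2.11. Without Control replicate 2 the mean difference over the 4 peaks was -1.19, against -2.95 with it. The number of the 4 peaks called was 2 without Control replicate 2, 2 without Neurog2+Hmgb2 replicate 1 or 3, and 1 without Neurog2+Hmgb2 replicate 2. The peak at the Calb1 TSS was at -1.01 ± 0.36 (adjusted p = 0.137). The Calb1 site that the study used for its binding assays is none of these. It is an intergenic peak 272.0 kb from the TSS (chr4:15608489-15608913), and it rose (0.86 ± 0.23, adjusted p = 0.0299).

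In the chromosome 5 region, which holds genes of the Speer family and related predicted genes, all 85 peaks had a lower estimate with Neurog2+Hmgb2, and 78 of them separated the groups. The mean over the 85 peaks was 4.68, 4.71 and 4.47 with Neurog2+Hmgb2, against 5.20, 5.42 and 5.35 in Control. Elsewhere in the series the bFGF Neurog2 libraries had 4.33, 4.72 and 4.69, the bFGF Hmgb2 libraries 4.33, 4.8 and 5.22, and the EGF+bFGF Control libraries 4.72, 4.59 and 4.48. Control replicates 2 and 3 were the highest of the 25 libraries. The largest LAS of the region, near Gm21190 (chr5:15508512-15510368), had 5.95, 6.06 and 5.46 with Neurog2+Hmgb2, against 6.97, 7.08 and 7.19 in Control (-1.26 ± 0.31, adjusted p = 0.0185), and lost the call in 3 of 6 fits without 1 library, while the sites near Speer4c (-1.15 ± 0.31) and Gm21149 (-1.25 ± 0.34) lost it in all 6. In their central 300 bases 60 of the 85 peaks, and 5 of the 8 LASs, matched another peak of the region at 90% identity or more over at least 100 bp, so the reads of such copies may be split between them. The region was chosen after its values were seen.

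The remaining 3 LASs were single sites. The site named after 1700129C05Rik (chr14:58658670-58658828, 484.0 kb from its TSS) had 4.87, 5.05 and 5.13 with Neurog2+Hmgb2, against 5.29, 7.11 and 6.69 in Control, again with Control replicates 2 and 3 high, and its call (-1.35 ± 0.37, adjusted p = 0.0409) was lost in 5 of 6 fits without 1 library. Near Rabggta, a subunit of an enzyme that prenylates Rab proteins, the values were 5.74, 6.14 and 5.6 with Neurog2+Hmgb2, against 6.68, 6.83 and 7.17 in Control (-1.06 ± 0.21, adjusted p = 0.00431). In Cntnap5c, a contactin-associated protein gene, they were 3.75, 3.86 and 4.44 with Neurog2+Hmgb2, against 4.97, 5.12 and 4.96 in Control (-1.0 ± 0.21). At both sites the groups were apart, and without 1 library the difference came to 1 or less in size in 2 of 6 fits for Rabggta and 3 of 6 for Cntnap5c, at an adjusted p still under 0.05.

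The libraries of the other culture did not enter the group means that chose the MASs, although the fit shared its estimate of the spread with them. In EGF+bFGF culture, Neurog2+Hmgb2 against Control gave 308 MASs (0.675%) and 17 LASs (0.0372%), with 537 MASs without its Neurog2+Hmgb2 replicate 1 and 187 without replicate 3. All 188 bFGF MASs were higher there in the estimate, against 47.6% of all peaks, and in 182 the EGF+bFGF groups did not overlap, against 12.5% of all peaks in that direction. Of the 188, 173 had an adjusted p under 0.05 there, against 3.95% of all peaks. Their median difference was 1.07 in EGF+bFGF culture and 1.11 in bFGF culture. The 109 sites that were MASs in both cultures are 58.0% of the bFGF MASs and 35.4% of the EGF+bFGF MASs. At the 199 EGF+bFGF MASs not called in bFGF culture the median bFGF difference was 0.79, and 137 of them were higher in bFGF culture at an adjusted p under 0.05. The test of the difference between cultures called 0 peaks with limma, and 1375 peaks had an unadjusted p under 0.05 (3.01%). Leaving out bFGF Control replicate 1 gave 2 calls.

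The LASs were not called again. Of the 15, 7 were lower in EGF+bFGF culture in the estimate and 0 were LASs there, with a median difference of 0.0234 in EGF+bFGF culture and -1.17 in bFGF culture. At Calb1 exon 2 the EGF+bFGF difference was -0.32.

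Within bFGF culture the MASs can be set beside Neurog2 and Hmgb2 given alone, each against the same Control libraries. Their median difference was 1.11 with Neurog2+Hmgb2, 0.821 with Neurog2 and 0.152 with Hmgb2. Among the bFGF Neurog2 libraries replicate 2 stood apart, with a mean correlation of 0.936 with its own group, the lowest of the 25 libraries. With Neurog2 alone 59 peaks were MASs (0.129%) and 13 LASs (0.0285%). Without Neurog2 replicate 2 there were 100 MASs and 12 LASs, and the median over the 188 sites was 0.924. The MASs of Neurog2 alone ran from 37 without Control replicate 1 to 120 without Neurog2 replicate 1, and its LASs from 3 without Control replicate 2 to 31 without Neurog2 replicate 1, in fits chosen after seeing the data. With Hmgb2 alone 0 peaks were MASs or LASs by limma, where 1809 peaks had an unadjusted p under 0.05 (3.96%). Because the 188 were picked for a high Neurog2+Hmgb2 value, the gap between the medians is partly built in. The direct test of Neurog2+Hmgb2 against Neurog2 called 0 peaks with limma (smallest adjusted p = 0.307), with 3241 peaks at an unadjusted p under 0.05 (7.10%), and 1 peak when the fit held the compared libraries only. At the Dlgap1 site the Neurog2 libraries had 5.07, 4.43 and 5.43, and the difference of Neurog2+Hmgb2 from Neurog2 alone was 0.83 ± 0.21 (95% interval 0.39 to 1.26), but 0.55 ± 0.21 (0.12 to 0.98) without Neurog2 replicate 2. At Gm8797 the difference was 0.00 ± 0.21 (-0.43 to 0.43) and at Serping1 -0.19 ± 0.20 (-0.61 to 0.23).

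**Figure D5:**
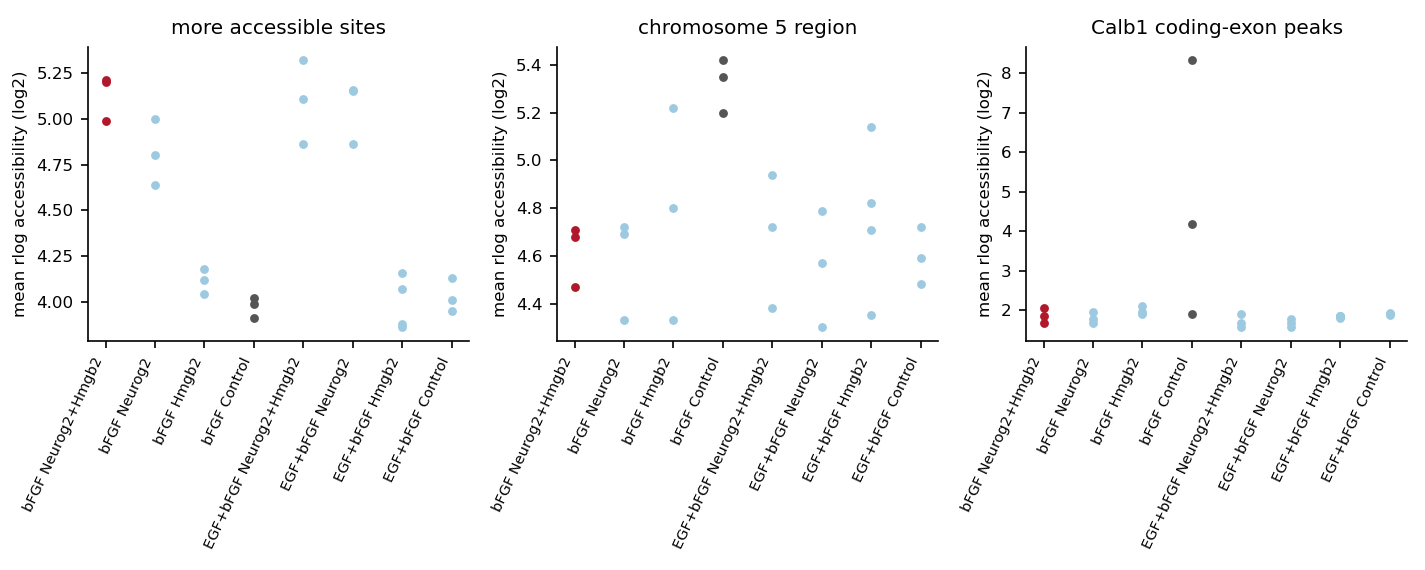
Mean rlog accessibility (log2 scale) per library in the 8 groups of the series, bFGF groups on the left of each panel, with bFGF Neurog2+Hmgb2 in red and bFGF Control in grey. Left, the 188 MASs, at 4.99 to 5.21 with Neurog2+Hmgb2 and 3.91 to 4.02 in Control; middle, the 85 peaks of the chromosome 5 region, where the Control libraries at 5.20 to 5.42 are high; right, the 4 Calb1 exon peaks, where Control replicates 2 and 3 at 8.33 and 4.19 stand apart.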

How the data were processed

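ATAC-seq was done on sorted astrocytes, and 6 of 25 libraries were compared. The authors trimmed reads with cutadapt, aligned them to mm10 with Bowtie2 and called peaks per sample with Genrich, without PCR duplicates. The deposited log2 values are rlog values the authors computed with DESeq2 1.36.0; rlog pulls differences of weak peaks towards 0, and depth is unknown. Peak starts count from 0 and are printed from 1. Each peak was fitted with limma 3.58.1 (R 4.3.3) as 8 group means over 25 libraries, with 17 residual degrees of freedom, a mean trend and adjustment over all 45672 peaks. In simulated data with 200 changed peaks, the fit was checked. Peaks sharing viral coding sequence were found with blastn (E-value limit 1e-10, 90% identity, 100 bp). Genes are from GENCODE M21, and sequence is from GRCm38 as given by RefSeq.

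The members and gene lists were chosen with earlier results of these data known. Named sites were the 10 largest MASs, 6 promoter MASs and 6 LASs with groups apart, 1 per gene, up to 3 promoters and 3 called sites per list, every promoter of the lists the study named, and Neurog2 and Hmgb2. Other sites named were chosen after their values were seen. Promoters were represented by the peak with the highest mean, and 106 peaks without 300 bases of sequence were left out of motif counts. Sequence windows overlapping an untranslated region were passed over. Alternatives covered the libraries fitted, scaling, filters, thresholds, a replicate block and leaving out each library. Some genes and sequences that the naming rule selected are not reported here.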

Additional observations from a re-analysis of the deposited data

How the results depend on the processing

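Against 188 MASs and 15 LASs, the counts were 1176 and 212 with no limit on the difference. LASs numbered 5 at an adjusted p under 0.01, 5 with a robust prior and 3 without the Calb1 exons and the chromosome 5 region, an alternative chosen after seeing the data. Leaving out 1 of the 6 compared libraries gave 190 to 309 MASs and 3 to 30 LASs, with 309 MASs without Neurog2+Hmgb2 replicate 1, 3 LASs without Neurog2+Hmgb2 replicate 3 and 30 LASs without Control replicate 1. Without bFGF Neurog2 replicate 2, which only shares the spread, there were 189 and 15. In EGF+bFGF culture 308 MASs became 1804 with no limit on the difference and 187 to 537 without 1 library (537 without Neurog2+Hmgb2 replicate 1, 187 without replicate 3). The interaction gave 0 to 2 calls without 1 library, and Neurog2+Hmgb2 against Neurog2 gave 1 call in the fit of the compared libraries only. Promoter minus distal signal turned to 0.00203 with quantile normalization, and leaving out 1 library gave -0.113 to 0.0176. Same-numbered libraries did not deviate together (correlations of -0.152, -0.277 and 0.193), and with the replicate block there were 189 MASs and 15 LASs. The causes were not tested. CAGATG in the whole peak was found in 94.7% of MASs and 39.9% of all peaks. Over 97 named sites, 1489 refits left the call as it was, 50 lost it, 3 gained it and 0 turned. Without counts, depth sets no interval, and the fold of weak sites is understated.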
